A study of Mus musculus with 9 samples.

Results

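The genes described here are 10 genes of the actin cytoskeleton and the smooth muscle contractile apparatus, *Acta2*, *Tagln*, *Cnn1*, *Myl9*, *Tpm1*, *Tpm2*, *Actb*, *Actg1*, *Vim* and *Vcl*. They were taken by gene name from a table of 15184 genes, and all 10 were in it. The table holds RNA-Seq measurements of polyA+ RNA from mouse embryonic fibroblasts (MEFs), connective tissue cells that were cultured from mouse embryos in serum-containing medium. It has 9 libraries in 3 groups. The control group (Empty, 3 libraries) is labelled empty vector, and the lines SAM1 and SAM2 (3 libraries each) are both labelled Hnrnpk_SAM. SAM stands for synergistic activation mediator, a system in which a catalytically inactive Cas9 and a guide RNA bring transcriptional activators to a chosen gene, here *Hnrnpk*, which encodes an RNA and DNA binding protein. By the study's methods, wild-type MEFs were transduced with lentiviruses, selected with blasticidin and hygromycin, and given each *Hnrnpk* guide by itself, while the control virus is described there with a nontargeting guide. The methods print the same sequence for that guide as for 1 of the *Hnrnpk* guides, so what the control libraries carried is uncertain, which bears on every comparison with them. Which guide SAM1 or SAM2 carried is not given in the sources used here. Nothing in the labels says that the 3 libraries of a group came from separate cultures, so the p-values measure the spread between libraries, which may be technical, and SAM1 and SAM2 are not known to be more than 1 transduced line each.

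Actin filaments are polymers of closely related actin isoforms: β-actin (*Actb*) and γ-actin (*Actg1*) are made by nearly every cell, while α-smooth muscle actin (*Acta2*) is made by smooth muscle and by contractile fibroblasts (myofibroblasts). Tropomyosins (*Tpm1*, *Tpm2*) lie along the filament, calponin (*Cnn1*) and transgelin (*Tagln*, also called SM22α) bind it, and the regulatory light chain (*Myl9*) switches the myosin that pulls on it. Vinculin (*Vcl*) couples filaments to cell adhesions, and vimentin (*Vim*) forms the intermediate filaments of mesenchymal cells. Many of these genes are known targets of serum response factor (SRF), which binds a DNA element called the CArG box together with co-activators of the myocardin family.

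Of the promoter windows of the 10 genes, 3 held a CArG box, which is written as CC and GG around a stretch of A and T bases and reads alike on both strands. RefSeq windows from 250 bases before to 50 bases after an annotated start were given for 8 of the 10 genes on the mouse assembly GRCm38.p6 (none for *Tagln* and *Actb*). A CArG box stood in 535 of all 32851 windows (1.63%), which belong to 27025 genes, and a box with 1 G or C in its middle stood in 8.5% of them. The sequences below are shown because the members that hold a box went different ways in the RNA. Each is the upstream stretch around the box, written in the direction of transcription, with the box in capitals. In *Myl9* the box began 161 bases before the start (chr2:156775258-156775357, + strand), in *Actg1* 90 bases before it (chr11:120348531-120348630, − strand) and in *Vcl* 227 bases before it (chr14:20929148-20929225, + strand, the upstream end of its window). *Acta2* had no exact box, and a stretch with 1 changed base in the middle began 84 bases before its start (chr19:34255403-34255502, − strand).
Myl9: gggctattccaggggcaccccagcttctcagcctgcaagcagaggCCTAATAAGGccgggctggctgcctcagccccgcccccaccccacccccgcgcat
Actg1: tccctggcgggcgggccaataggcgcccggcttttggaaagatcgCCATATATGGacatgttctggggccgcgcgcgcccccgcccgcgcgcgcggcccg
Vcl: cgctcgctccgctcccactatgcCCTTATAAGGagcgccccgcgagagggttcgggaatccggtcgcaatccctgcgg
Acta2: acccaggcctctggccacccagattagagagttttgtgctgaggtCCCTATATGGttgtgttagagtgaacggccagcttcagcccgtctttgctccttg

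*Acta2* had another such near box 34 bases before its start, and *Myl9* had one 99 bases before. The windows of *Cnn1*, *Tpm1*, *Tpm2* and *Vim* held neither form. As described below, the RNA of *Myl9* rose, that of *Actg1* fell, and that of *Vcl* passed the threshold against empty vector in neither line, although all held an exact box. These letters are a description of the windows, not of bound sites.

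The values are read counts per gene that the authors divided by a size factor per library, here called normalized counts. They rest on 41759636 to 49026626 counts per library on the listed genes, so counting error is small for all 10 genes (lowest library value 387 normalized counts, *Cnn1*). *Hnrnpk*, the gene meant to be activated, stood at 25058, 26098 and 26164 normalized counts in Empty, at 24102, 24045 and 23619 in SAM1 and at 26608, 26859 and 26221 in SAM2. It was lower in SAM1 (log2 fold change −0.11, limma adjusted p = 0.00252) and did not pass the threshold in SAM2 (0.04, limma adjusted p = 0.159). The RNA of these libraries thus goes against the label in SAM1, and SAM1 and SAM2 are used below as names of the libraries so labelled. The study itself reports *Hnrnpk* overexpression in its SAM MEFs by qRT-PCR, with *Gapdh* and/or β-actin as references, and by Western blot. *Gapdh*, a common reference gene, rose in both lines, from 6657 to 10916 and 8804 normalized counts. Taking it as the reference moved the median log2 fold change of all genes to −0.70 in SAM1 and −0.40 in SAM2. Any smaller rise thus turns negative on that scale. Equal library totals moved the median to 0.15 and 0.10. Relative to the median of all genes, none of the 10 genes changed sign under these 2 scalings. Each scaling shifts all genes by nearly the same amount, so this outcome was fixed in advance and says nothing about robustness. Pairs of libraries of 1 group differed by more than sampling noise (chi-square per gene 1.45 to 12.9). Over all genes, SAM1 replicate 2 stood apart from SAM1 replicates 1 and 3 (7.83 and 9.30, beside 1.45 between those). The Empty pairs were at 10.7 to 12.9. Within the 10 genes, Empty replicate 2 held the highest Empty value for 8 genes and SAM1 replicate 2 the highest SAM1 value for 9, all but *Vcl*. How often these libraries held the highest value over all genes was not counted.

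**Figure D1:**
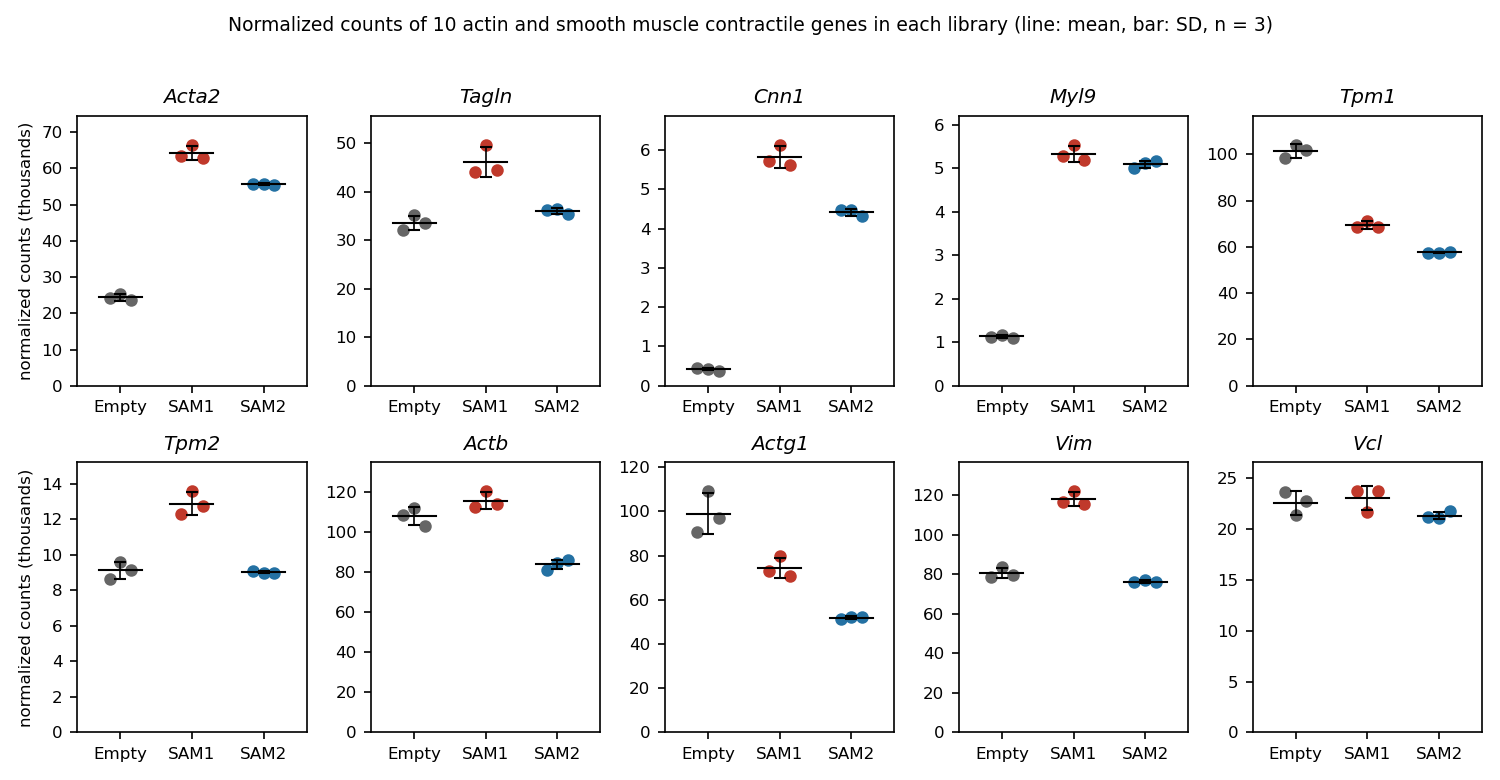
Normalized counts (axes from 0) of the 10 genes in each of the 9 libraries, by group, with the mean as a line and the SD as a bar (n = 3). *Cnn1*, *Myl9* and *Acta2* stand far above Empty in both lines, *Tpm1* and *Actg1* stand below it, and the 3 groups of *Vcl* overlap (21062 to 23710).

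The comparison of the libraries labelled Hnrnpk_SAM with empty vector asks which RNAs differ when the SAM system is directed at *Hnrnpk*. *Cnn1*, *Myl9* and *Acta2* rose in both lines, by 13.7-, 4.70- and 2.64-fold in SAM1 and by 10.4-, 4.49- and 2.28-fold in SAM2. *Tpm1* and *Actg1* fell in both. *Tagln*, *Tpm2* and *Vim* rose in SAM1, where all turned negative relative to *Gapdh*. In SAM2 *Tagln* and *Tpm2* did not pass the threshold, and *Vim* was slightly lower, with a sign that turned under quantile normalization and equal library totals. *Actb* was slightly higher in SAM1 (negative relative to *Gapdh*) and lower in SAM2, and *Vcl* did not pass the threshold in either line.

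Genes were called at a Benjamini-Hochberg adjusted p below 0.05 in limma, a linear model fitted to log2(normalized count + 1) of all 15184 genes. In SAM1, 7 of the 10 genes were higher and 2 lower (all genes: 37.3% higher and 36.9% lower). In SAM2, 3 were higher and 4 lower (all genes: 35.2% and 35.3%). With the 6 Hnrnpk_SAM libraries as 1 group, 3 were higher and 2 lower (all genes: 26.8% and 27.0%). Between the lines, none was higher in SAM2 than in SAM1 and 9 were lower (all genes: 31.1% and 29.2%). The median log2 fold change of the 10 genes was 0.48 in SAM1 (all genes 0.0093), −0.05 in SAM2 (−0.0015), 0.24 for both lines as 1 group (0.0087) and −0.38 for SAM2 against SAM1 (−0.0075). Of all calls, 50.3% were higher in SAM1 and 49.9% in SAM2, which became 63.8% and 61.3% with equal library totals and 13.8% and 18.6% relative to *Gapdh*. For both lines as 1 group this share was 49.8%, 65.3% and 12.5%, and for SAM2 against SAM1 it was 51.5%, 44.6% and 84.6%. Whether a group held fewer cells of a kind or less RNA per cell cannot be told apart in bulk RNA.

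**Figure D2:**
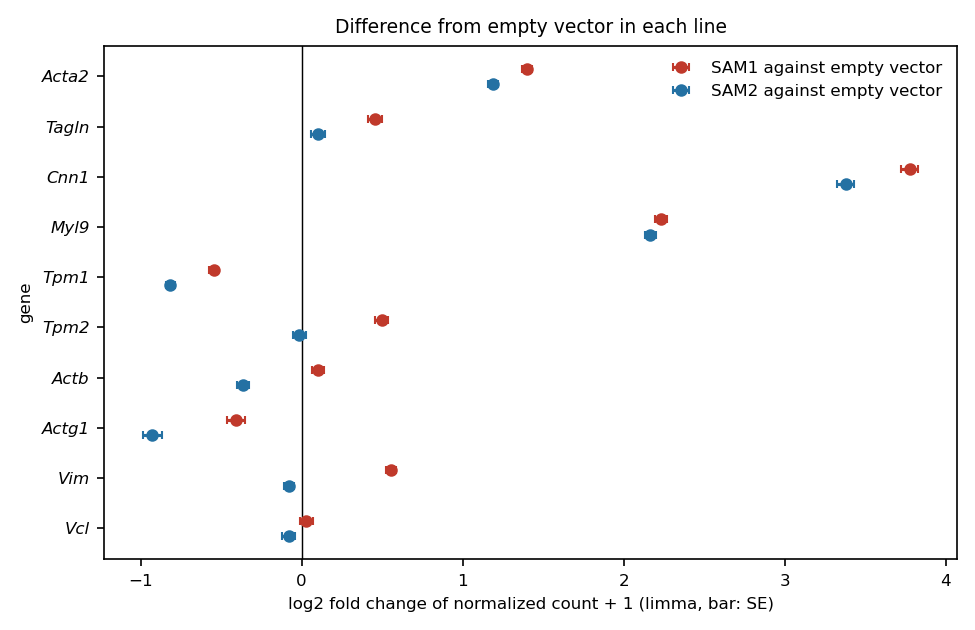
Log2 fold change of normalized count + 1 against empty vector for each of the 10 genes, SAM1 in red and SAM2 in blue, with the standard error as a bar (limma, n = 3 libraries a group). *Cnn1* (3.78 and 3.38), *Myl9* (2.23 and 2.16) and *Acta2* (1.40 and 1.19) lie farthest to the right, *Tpm1* and *Actg1* lie left of 0 in both lines, and the SAM2 point lies left of the SAM1 point for every gene (relative to *Gapdh* this order turns for *Acta2*, *Myl9*, *Tpm1* and *Vcl*).

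*Acta2* encodes the actin isoform that marks smooth muscle and myofibroblasts. Its normalized counts were 24132, 25339 and 23666 in Empty, 63478, 66517 and 62966 in SAM1, and 55650, 55791 and 55287 in SAM2. The groups did not overlap, and SAM2 lay between Empty and SAM1. The log2 fold change was 1.40 ± 0.03 (SE) in SAM1 (limma adjusted p = 3.24e-13) and 1.19 ± 0.03 in SAM2 (limma adjusted p = 2.68e-12). In GRCm39 the gene lies at chr19:34217737-34232990 on the − strand and overlaps *Stambpl1* on the other strand, which stood at 2109, 2097.5 and 2621 normalized counts in the 3 groups.

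*Cnn1* encodes calponin 1, which binds actin and slows the myosin ATPase in smooth muscle. It changed the most of the 10 genes. The 3 Empty libraries had 452, 435 and 387 normalized counts, the SAM1 libraries 5725, 6136 and 5607.5, and the SAM2 libraries 4469, 4473 and 4308. Every library of both lines lay far above the highest Empty library, and SAM2 lay below SAM1. The mean rose from 425 ± 34 (SD, n = 3) to 5823 ± 278 in SAM1 (log2 fold change 3.78 ± 0.05, limma adjusted p = 5.65e-15) and to 4417 ± 94.2 in SAM2 (3.38 ± 0.05, limma adjusted p = 2.27e-14). *Cnn1* (chr9:22010512-22020926, + strand) overlaps *Elof1* on the other strand, which was lower in both lines (−0.42 and −0.48 on the log2 scale).

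Its relatives in the calponin family, which are less tied to smooth muscle, did not follow it. *Cnn2* fell from 26169 in Empty to 18976 in SAM1 and 15952 in SAM2, with log2 fold changes of −0.46 and −0.71 (limma adjusted p = 5.21e-09 and 1.05e-10). *Cnn3* fell as well (−0.17 and −0.16, limma adjusted p = 0.00023 and 0.000339). Per kb of exon, *Cnn1* stood at 0.0146 ± 0.0011 of the level of *Cnn2* in Empty, at 0.277 ± 0.0057 in SAM1 and at 0.250 ± 0.0056 in SAM2 (SD, n = 3).

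*Tagln* encodes transgelin, an actin cross-linking protein that is an early marker of smooth muscle. Its Empty libraries had 32191, 35148 and 33584 normalized counts, those of SAM1 44201, 49763 and 44433, and those of SAM2 36362, 36384 and 35379. All SAM1 libraries lay above all Empty libraries, whereas the SAM2 libraries lay just above the highest Empty library. *Tagln* rose in SAM1 by a log2 fold change of 0.45 ± 0.04 (limma adjusted p = 7.33e-07), and in SAM2 the value was 0.10 ± 0.04 (limma adjusted p = 0.0604), a call that is made without Empty replicate 2 (adjusted p = 0.0194) or without SAM1 replicate 2 (0.00966). It was also made under quantile normalization (0.30) and with equal library totals (0.20). Relative to *Gapdh*, both lines were below 0 (−0.26 and −0.30). With both lines as 1 group *Tagln* was at 0.28 (limma adjusted p = 0.0610) and passed the threshold without any 1 of the SAM2 libraries (adjusted p between 0.0353 and 0.0465). *Tagln2* was at 0.10 in SAM1 (limma adjusted p = 0.0184) and 0.06 in SAM2 (limma adjusted p = 0.167), and the low *Tagln3* rose from 15.9 to 51.2 and 34.8 normalized counts. The *Tagln* locus (chr9:45840909-45847404, − strand) overlaps *Pcsk7* on the other strand, which had 1575, 1529 and 1584 normalized counts in the 3 groups, and the long non-coding RNA *Gm48529* on the same other strand, which had 226, 374 and 239.

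*Myl9* encodes the smooth muscle form of the myosin regulatory light chain, whose phosphorylation starts contraction. The Empty libraries had 1130.4, 1166 and 1107.5 normalized counts, the SAM1 libraries 5279, 5541 and 5186, and the SAM2 libraries 4997, 5117 and 5157. Both lines lay far above Empty, and the SAM2 libraries lay just below the lowest SAM1 library. The log2 fold changes were 2.23 ± 0.03 in SAM1 (limma adjusted p = 1.02e-14) and 2.16 ± 0.03 in SAM2 (limma adjusted p = 2.27e-14). The difference between the lines, −0.07 ± 0.03, did not pass the threshold (limma adjusted p = 0.11). *Myl12a*, which encodes a regulatory light chain of non-muscle cells, fell in SAM1 (−0.26, limma adjusted p = 0.00105) and was at −0.11 in SAM2 (limma adjusted p = 0.103). Per kb of exon *Myl9* went from 0.246 ± 0.018 of the level of *Myl12a* in Empty to 1.39 ± 0.049 in SAM1 and 1.19 ± 0.01 in SAM2. *Myl9* lies at chr2:156617084-156623579 on the + strand and overlaps *5730471H19Rik* on the other strand (334, 325 and 351 normalized counts).

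Tropomyosins are coiled coils that run along the actin filament and gate its access to myosin and cofilin. *Tpm1*, which is spliced into muscle and non-muscle forms that gene counts do not separate, had 98247, 104132 and 101749 normalized counts in Empty, 68397, 71227 and 68547 in SAM1, and 57452, 57495 and 57818 in SAM2. The 3 groups were apart, with SAM2 the lowest. *Tpm1* fell by 0.55 ± 0.03 on the log2 scale in SAM1 (limma adjusted p = 1.52e-09) and by 0.82 ± 0.03 in SAM2 (limma adjusted p = 4.4e-11).

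*Tpm2*, whose main product is the β-tropomyosin of muscle and fibroblasts, had 8619, 9581 and 9155 normalized counts in Empty, 12315, 13571 and 12736 in SAM1, and 9105, 8987 and 8976 in SAM2. SAM1 stood above the other groups, and SAM2 lay within the Empty range. The log2 fold change was 0.50 ± 0.04 in SAM1 (limma adjusted p = 1.37e-07; −0.22 relative to *Gapdh*) and −0.01 ± 0.04 in SAM2 (limma adjusted p = 0.781), where the sign turned under quantile normalization (0.05), equal library totals (0.09) and without Empty replicate 2 (0.02). Neither of the other tropomyosin genes rose. *Tpm4* fell from 75031 to 57321 and 51067 normalized counts (limma adjusted p = 2.42e-08 and 9.1e-10), and *Tpm3* was at −0.05 in SAM1 (limma adjusted p = 0.190) and fell by 0.32 in SAM2 (limma adjusted p = 9.03e-07). Per kb of merged exons the ratio of *Tpm2* to *Tpm1* was 0.171 ± 0.0041 in Empty, 0.354 ± 0.01 in SAM1 and 0.299 ± 0.0031 in SAM2. The size of this ratio depends on the length used, while its relative change between groups does not. Per kb of the canonical transcript, *Tpm2* stood at 2788 beside 46291 for *Tpm1* in Empty.

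**Figure D3:**
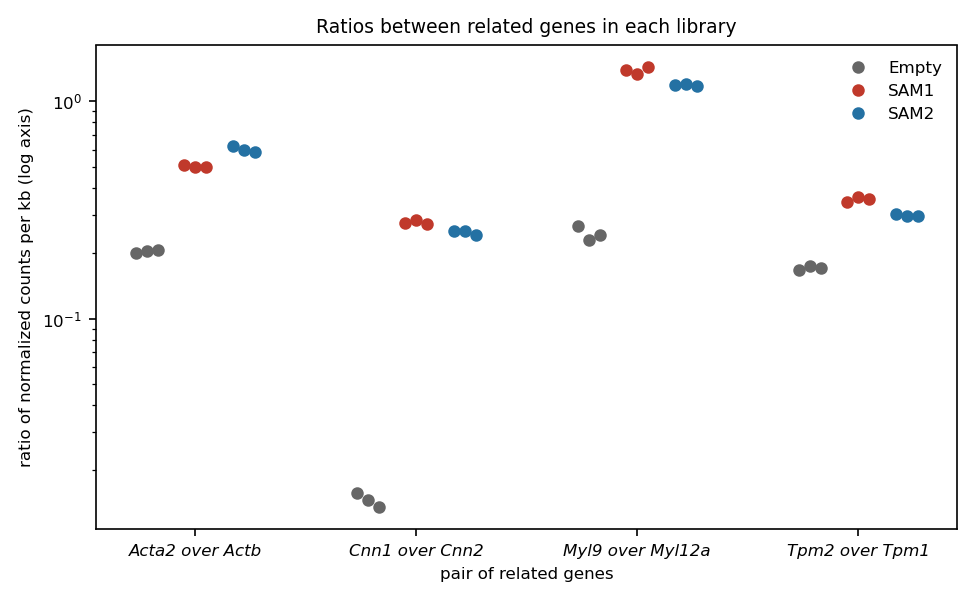
Ratio of normalized counts per kb of merged exons for 4 pairs of related genes (log axis), with 1 point per library, Empty in grey, SAM1 in red and SAM2 in blue. All 6 points of the lines lie above the 3 Empty points in each pair, and the gap is widest for *Cnn1* over *Cnn2* (0.0146 against 0.277 and 0.250).

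The non-muscle actins made up most of the actin signal per kb. *Actb* had 108691, 111875 and 103110 normalized counts in Empty, 112729, 120330 and 113883 in SAM1, and 81279, 84465 and 85810 in SAM2. SAM1 lay just above Empty and SAM2 well below it. In SAM2 *Actb* fell by 0.36 ± 0.04 on the log2 scale (limma adjusted p = 1.37e-06), and under quantile normalization it was at −0.07 (adjusted p = 0.171). In SAM1 it rose by 0.10 ± 0.04 (limma adjusted p = 0.0270), a call that was lost without Empty replicate 3 (adjusted p = 0.129) or SAM1 replicate 2 (0.0912) and that turned to −0.61 relative to *Gapdh*. *Actg1* had 90823, 109091 and 96855 normalized counts in Empty, 73081, 79627 and 70585 in SAM1, and 51117, 52396 and 52052 in SAM2. The groups did not overlap, and the SAM2 libraries were the lowest. *Actg1* fell by 0.41 ± 0.06 in SAM1 (limma adjusted p = 2.57e-05) and by 0.93 ± 0.06 in SAM2 (limma adjusted p = 9.59e-09), and under quantile normalization the fall in SAM1 shrank to −0.06 (adjusted p = 0.451). *Actb* and *Actg1* encode near-identical proteins from similar coding sequences and have processed pseudogenes. The alignment allowed 20 placements per read, so how reads that fit more than 1 of them were counted is uncertain. *Actg1* also overlaps *0610009L18Rik* on the other strand (39.1, 52.1 and 37.5 normalized counts).

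*Actg2* and *Acta1*, the other muscle actins in the table, rose too, by more than the shift that either scaling gives. *Actg2*, the γ-actin of visceral smooth muscle, had 123, 144 and 131 normalized counts in Empty, 1031, 1021 and 995 in SAM1, and 1493, 1513 and 1427 in SAM2. It was higher in SAM2 than in SAM1 (difference from SAM1 0.54 ± 0.06, limma adjusted p = 4.87e-06). *Acta1*, the actin of skeletal muscle, rose from 43.1 ± 1.9 to 250 ± 13.4 and 205 ± 13.7 normalized counts (limma adjusted p = 3.08e-11 and 1.53e-10). How reads that fit more than 1 actin were counted is uncertain here too, and the related *Acta2* stood at far higher counts. *Actc1*, the cardiac actin, was not in the table.

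Set against each other per kb of merged exons, *Acta2* made up 9.98%, 9.52% and 9.79% of the actin normalized counts in the Empty libraries, 23.7%, 23.2% and 23.7% in SAM1, and 27.5%, 26.9% and 26.6% in SAM2. Its share was thus highest in SAM2 although its normalized counts were highest in SAM1. *Actg1* went the other way, from 42.4% ± 1.9 in Empty to 29.2% ± 0.68 and 27.0% ± 0.14 (SD, n = 3), and *Actb* had shares of 47.7%, 46.7% and 44.9%. The ratio of *Acta2* to *Actg1* per kb of merged exons was 0.231 ± 0.016 in Empty and 0.999 ± 0.014 in SAM2. With the exons of the canonical transcript as the length, the share of *Acta2* was 7.96%, 19.6% and 22.6% in the 3 groups, and in SAM2 it stayed below the 26.7% of *Actg1*.

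**Figure D4:**
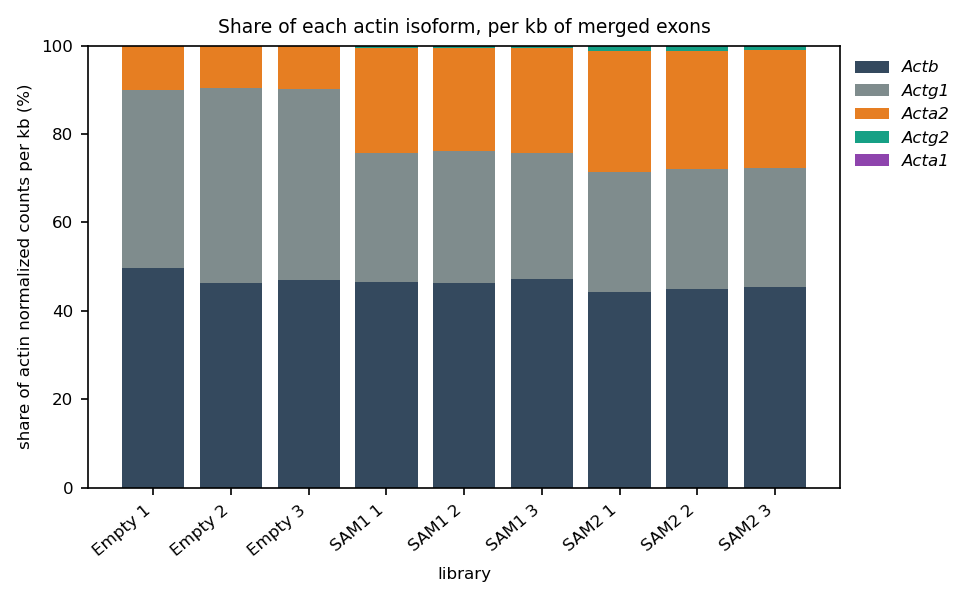
Share of each of 5 actin isoforms in the actin normalized counts per kb of merged exons (%), stacked to 100% for each of the 9 libraries. The *Acta2* band widens from about 9.76% in Empty to 23.5% in SAM1 and 27.0% in SAM2, the *Actg1* band narrows, and *Actg2* and *Acta1* stay thin (means of at most 1.04% and 0.0865%).

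*Vim*, the intermediate filament gene of mesenchymal cells, had 78530, 83510 and 79481 normalized counts in Empty, 116480, 121955 and 115724 in SAM1, and 75892, 76984 and 76007 in SAM2. SAM1 stood apart from both other groups, and the SAM2 libraries lay just below the lowest Empty library. It rose by 0.55 ± 0.03 on the log2 scale in SAM1 (limma adjusted p = 2.93e-09; −0.16 relative to *Gapdh*). In SAM2 it was at −0.08 ± 0.03 (limma adjusted p = 0.0433), and this call was lost when any of Empty replicates 2 and 3, SAM1 replicates 1 and 3 or the SAM2 libraries was left out (adjusted p between 0.0514 and 0.153), while quantile normalization (0.34) and equal library totals (0.03) turned its sign. *Vim* lies at chr2:13578738-13587639 on the + strand. The 38 genes that start within 5 Mb of it had a median log2 fold change of 0.60 in SAM1 and 0.35 in SAM2, beside 0.55 and −0.08 for *Vim* itself.

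*Vcl*, which encodes vinculin, had 23666, 21334 and 22771 normalized counts in Empty, 23710, 21713 and 23693 in SAM1, and 21190, 21062 and 21734 in SAM2. All 3 groups overlapped. The log2 fold change was 0.03 ± 0.04 in SAM1 (limma adjusted p = 0.553; −0.01 without Empty replicate 2) and −0.08 ± 0.04 in SAM2 (limma adjusted p = 0.0977), where it passed the threshold without Empty replicate 2 (adjusted p = 0.0129) or SAM1 replicate 2 (0.0418) and changed sign under quantile normalization (0.06) and equal library totals (0.02). *Vcl* is on chromosome 14 (20979449-21083758, + strand). The other 512 genes of that chromosome had a median log2 fold change of 0.53 in SAM1 and 0.57 in SAM2, and the 54 genes within 5 Mb of *Vcl* one of 0.31 and 0.26, so that *Vcl* stayed near its Empty level while its chromosome stood above it. In SAM1 *Vcl* passed the threshold under quantile normalization (0.22), with equal library totals (0.17) and, in the other direction, relative to *Gapdh* (−0.69). *Ap3m1*, which overlaps *Vcl* on the other strand, was at 0.19 and 0.21. For the other 8 genes, the median of the genes within 5 Mb lay between −0.24 and 0.26 in SAM1 and between −0.25 and 0.11 in SAM2.

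Between the lines, SAM2 was lower than SAM1 for all 10 genes, apart from *Acta2*, *Myl9*, *Tpm1* and *Vcl* when taken relative to *Gapdh*, and 9 differences passed the threshold. Of all genes, 29.2% were called lower and 31.1% higher in SAM2 than in SAM1. *Vim* differed the most (−0.63 ± 0.03, limma adjusted p = 2.53e-09), followed by *Actg1* (−0.52 ± 0.06), *Tpm2* (−0.51 ± 0.04) and *Actb* (−0.46 ± 0.04). *Cnn1* (−0.40), *Tagln* (−0.35), *Tpm1* (−0.27) and *Acta2* (−0.21) were also lower in SAM2. The difference in *Vcl* (−0.11, limma adjusted p = 0.0363) was lost when any of Empty replicate 3, SAM1 replicates 1 and 3 or the SAM2 libraries was left out (adjusted p between 0.0518 and 0.133). Relative to *Gapdh*, which was itself lower in SAM2 than in SAM1, the differences of *Acta2* (0.10), *Myl9* (0.24), *Tpm1* (0.04) and *Vcl* (0.20) turned positive. Summed over the 10 genes, their share of all normalized counts was 0.983% ± 0.042 in Empty, 1.21% ± 0.05 in SAM1 and 0.882% ± 0.0073 in SAM2 (SD, n = 3).

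Levels of different genes were compared per kb of merged exons. In Empty the order was *Actb* (36911 ± 1518 normalized counts per kb), *Actg1* (32898 ± 3095.5), *Vim* (16942 ± 556), *Tagln* (16458 ± 724), *Tpm1* (12551 ± 367), *Acta2* (7555 ± 268), *Vcl* (2642.5 ± 138), *Tpm2* (2152 ± 114), *Myl9* (495 ± 12.8) and *Cnn1* (155 ± 12.4). The ranges of *Actb* and *Actg1* overlapped, as did those of *Vim* and *Tagln*, and the other neighbours in this order did not. In SAM1 *Acta2* (19932 ± 595) stood above *Tpm1* (8591 ± 197), and *Actg1* (24753 ± 1553) overlapped both *Vim* above it and *Tagln* below it. In SAM2 *Actg1* (17245 ± 220) overlapped both *Tagln* (17633 ± 281) above it and *Acta2* (17222 ± 80.7) below it. *Cnn1* remained the lowest of the 10 in both lines, at 2128 normalized counts per kb in SAM1 and 1614 in SAM2, beside 2327 and 2220.1 for *Myl9*. Among the 14791 genes with a length, *Acta2* ranked 136th in Empty, 34th in SAM1 and 36th in SAM2, and *Cnn1* moved from 7287 to 645 and 970. The place of *Tpm1* depends on the length used, since its merged exons (8077 bases) are longer than its canonical transcript (2190 bases), by which it would rank just below *Actb* in Empty and stand above *Acta2* in SAM1 (31685 against 23070) and SAM2 (26296 against 19934). By canonical length *Vim* ranked 2nd of the 10 in SAM1 (53832) and SAM2 (34790), and it did not overlap *Tagln* in Empty. *Actg1* then overlapped neither *Vim* nor *Tagln* in SAM1, and neither *Tagln* nor *Acta2* in SAM2.

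Genes that work with the 10 were read from lists, whose counts stand against 37.3% of all genes higher and 36.9% lower in SAM1, and 35.2% and 35.3% in SAM2. The list of SRF and myocardin family factors holds SRF, its co-activators and partners and proteins that bind or restrain them, and 10 of its 11 genes were in the table, with 6 higher and 2 lower in SAM1 and 7 higher and 3 lower in SAM2 (median log2 fold change 0.19 and 0.22). *Srf* itself had 3354.5, 3258 and 3289 normalized counts in Empty, 3225, 3171 and 3335 in SAM1, and 2754, 2740.0 and 2745.5 in SAM2. It did not pass the threshold in SAM1 (−0.03, limma adjusted p = 0.469) and fell in SAM2 by 0.26 (limma adjusted p = 4.15e-06). *Mrtfa*, the co-activator that senses free actin monomers, rose from 3239 ± 105 to 4409 ± 183 and 4916 ± 152 (limma adjusted p = 2.1e-07 and 1.27e-08), and *Mrtfb* rose by 0.27 in each line (limma adjusted p = 0.00638 and 0.00721).

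*Myocd*, the myocardin of smooth and cardiac muscle, was at the edge of detection in Empty, with 0, 0 and 1 counts recovered in the 3 libraries. SAM1 had 12, 27 and 16 counts and SAM2 17, 18 and 32. The ratio of the group totals to Empty was 49.6 in SAM1 (95% interval 8.53 to 1993) and 58.9 in SAM2 (10.2 to 2362), exact intervals that cover counting error only. Both lines were called (limma adjusted p = 3.39e-06 and 2.09e-06). *Fhl2*, a LIM domain protein that binds SRF, fell from 7697 to 3491 and 3942 normalized counts, while its relative *Fhl1* rose from 3743 to 5366 and 6286. Of the Ets family partners of SRF, *Elk4* fell (−0.39 and −0.41), *Elk3* rose by 0.18 and 0.17, and *Elk1* was at −0.01 in SAM1 (limma adjusted p = 0.755) and rose by 0.10 in SAM2. *Scai*, which restrains MRTF activity, rose by 0.20 and 0.42.

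In the list of smooth muscle contractile genes, 20 of 22 were in the table. Counting the 6 of the 10 genes that it holds, 14 were higher and 6 lower in SAM1, and 11 were higher and 6 lower in SAM2. Among its other 14 genes, 9 were higher and 5 lower in SAM1, and 8 were higher and 5 lower in SAM2 (median 0.39 and 0.38). *Lmod1*, the leiomodin that nucleates filaments in smooth muscle, rose from 111 ± 11.4 to 368 and 452 normalized counts, and *Smtn* (smoothelin) rose from 3310.5 to 4482 and 4251. *Des* (desmin) rose from 67.7 to 102 and 232. *Mylk*, the kinase that phosphorylates MYL9, fell from 481 to 310.3 and 422. Also lower in both lines were *Synpo2* (−0.66 and −0.56), *Pdlim7* (−0.20 and −0.38) and *Tgfb1i1* (−0.22 and −0.44). *Cald1* was lower in SAM1 (−0.21), and *Csrp1* was higher in SAM1 (0.22) and lower in SAM2 (−0.45). *Myh11*, the myosin heavy chain that defines mature smooth muscle, had 3, 3 and 2 recovered counts in Empty, 15, 16 and 20 in SAM1, and 10, 7 and 10 in SAM2, so it rose in both lines but stayed below 20 counts in all but 1 library.

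Markers of cell types were examined beside these changes. All 12 fibroblast markers were in the table, and their summed level was 979021 to 1077118 normalized counts in Empty, 778282 to 842171 in SAM1 and 1102169 to 1141608 in SAM2, with 2 of them higher and 9 lower in SAM1 and 3 higher and 5 lower in SAM2. Of the 8 smooth muscle markers 7 were in the table (all but *Kcnmb1*), with sums of 3710 to 4007 in Empty, 6058 to 6200 in SAM1 and 6472 to 6673 in SAM2, most of it from *Smtn*. In each line 6 of these markers were higher and 1 (*Synpo2*) was lower. Of the 6 pericyte markers 4 were in the table (2547 to 2995, 4003 to 4565 and 3962 to 4147). Only *Acta1* and *Tnnt2* of the 9 striated muscle markers were in it (138 to 155.5, 671 to 796 and 435 to 454), and *Myod1* and *Myog* were not. The endothelial markers in the table (4 of 6) summed to 301 to 357, 4613 to 4988 and 638 to 689, nearly all of the SAM1 level being *Kdr*, while *Cdh5* had 77.6, 64.7 and 51.2 and *Pecam1* 12.9, 29.4 and 12.0. The epithelial (4 of 6; 2246 to 2428, 7209 to 7734 and 2832 to 2918) and immune markers (4 of 6; 1487 to 1524, 2513 to 2673 and 1756 to 1775) were also highest in SAM1, *Epcam* and *Ptprc* not being in the table. The neural markers (2 of 6) summed to 1121 to 1374, 1271 to 1290 and 1099 to 1158. In both lines *Tubb3* was higher (268, 796 and 569) and *Map2* lower (1011, 483 and 568). Such sums mostly follow a few genes. The fibroblast sum was led by *Fn1*, *Col1a1* and *Col1a2*, while *Dcn* went from 11815 to 2713 and 2538. The pericyte sum was mostly *Cspg4*, and the epithelial rise in SAM1 was mostly *Cldn4* (366, 3691 and 211). The part of these cell types in the changes of the 10 genes was not tested.

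Taken as a whole, the list of myosin II chains and regulators did not rise with *Myl9*. Of its other 18 genes in the table, 4 were higher and 11 lower in SAM1, and 6 were higher and 8 lower in SAM2 (median −0.16 and −0.11). Among the heavy chains, *Myh10* rose (0.14 and 0.36), as did *Myh9* in SAM1 (0.34, and 0.08 in SAM2, limma adjusted p = 0.136) and the low *Myh11* given above. Of the light chains, *Myl6* fell (−0.29 and −0.36), and *Myl12b* was lower in SAM1 (−0.21) and higher in SAM2 (0.22). *Rhoa*, the GTPase upstream of stress fibres, fell from 27707 to 19138 and 17582 normalized counts (limma adjusted p = 9.18e-10 and 1.8e-10). *Ppp1cb*, the catalytic subunit of myosin phosphatase, fell (−0.88 and −0.53), and *Cdc42bpa*, a kinase of the light chain pathway, rose by 0.39 and 0.57 (limma adjusted p = 4.29e-05 and 1.52e-06).

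In the list of focal adhesion and stress fibre genes, which includes *Vcl*, 37 of 38 genes were in the table. Beside *Vcl*, 11 were higher and 19 lower in SAM1, and 12 were higher and 18 lower in SAM2 (median −0.12 and −0.09). *Actn1* (α-actinin 1, which bundles filaments) fell in both lines (log2 fold change −0.52 and −0.75), as did *Vasp*, which promotes filament growth (−0.80 and −0.68), and *Ilk*, integrin-linked kinase (−0.57 and −0.56).

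Among the intermediate filament genes, 10 of 14 were in the table. Beside *Vim*, 8 of the other 9 were higher and 1 lower in SAM1, and 5 were higher and 1 lower in SAM2 (median 0.62 and 0.44). *Nes* (nestin), a partner of vimentin in filaments, had 1992, 2009 and 1877 normalized counts in Empty, 8061, 8223 and 8119 in SAM1, and 7701, 7670.0 and 7833 in SAM2. It rose in both lines (2.05 and 1.98), and their difference of −0.07 ± 0.03 did not pass the threshold (limma adjusted p = 0.0609). Of the lamin genes, *Lmnb1* (1.17 and 0.97) and *Lmnb2* (0.23 and 0.37) rose in both lines. The more abundant *Lmna* had 23945, 31161 and 22070 normalized counts in the 3 groups. It was higher in SAM1 (0.38) and lower in SAM2 (−0.12, limma adjusted p = 0.00257).

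Actin assembly and turnover genes, were all 46 in the table, of which 18 were higher and 18 lower in SAM1, near the shares over all genes, and 14 were higher and 22 lower in SAM2 (median −0.06 in each). *Pfn2*, a profilin that delivers actin monomers to growing filaments, had 69219, 75216 and 73318 normalized counts in Empty, 2725, 2728.5 and 2760 in SAM1, and 3695, 3584 and 3521 in SAM2. The groups lay far apart, with log2 fold changes of −4.73 ± 0.03 and −4.33 ± 0.03 (limma adjusted p = 7.63e-18 and 2.15e-17). *Diaph3*, a formin that elongates filaments, rose by 1.46 and 1.36, and *Ssh3*, a cofilin phosphatase, by 0.81 and 0.86. *Cap2*, a cyclase-associated protein that recycles actin monomers, was singled out after its values were seen: it rose from 40.7 to 534 and 352 normalized counts (3.68 and 3.09, limma adjusted p = 4.61e-13 and 4.24e-12).

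**Figure D5:**
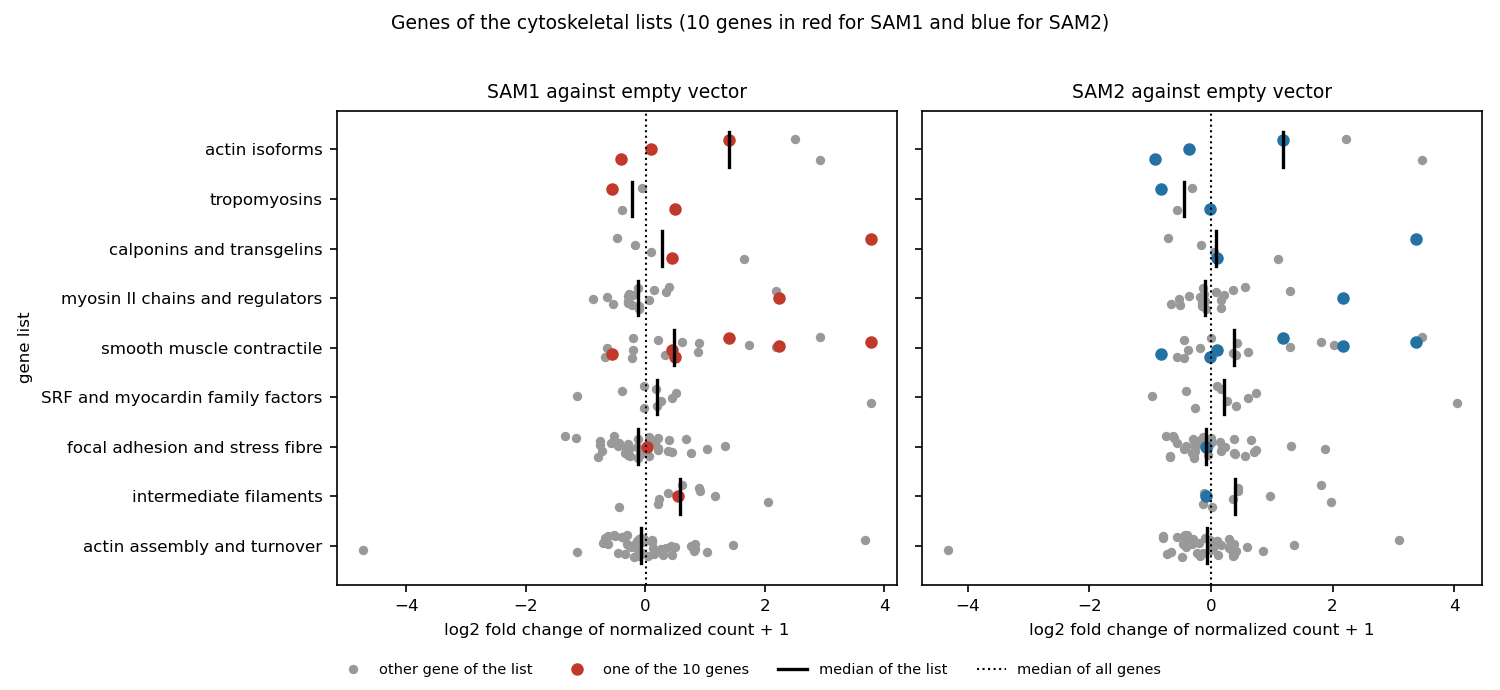
Log2 fold change of normalized count + 1 of every gene in 9 lists, SAM1 at left and SAM2 at right, with the 10 genes in color, other genes in grey, the median of each list as a bar and the median of all genes as a dotted line. *Cnn1* (3.78 and 3.38) lies at the right of the calponin list, *Acta2* (1.40 and 1.19) lies at the median of the actin isoforms, left of *Acta1* and *Actg2*, and in the actin assembly list *Pfn2* (−4.73 and −4.33) and *Cap2* (3.68 and 3.09) lie farthest out.

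The genes with the pattern most like *Acta2* across the 9 libraries, by Pearson r of log2 values, were *Cenpa* (0.9996), which encodes a centromeric histone, *Igfbp7* (0.9996), a secreted growth factor binding protein, and *Akr1c14* (0.9991), a reductase. *Igfbp7* had 10821, 28418 and 24557 normalized counts in the 3 groups, a log2 fold change of 1.39 and 1.18. Closest to *Vcl* were *Lrp1* (0.9621), *Lcor* (0.9613) and *Ank3* (0.9607). These coefficients mainly follow 3 group means over libraries that share their groups, and they are given as a description with no test.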

How the data were processed

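RNA of 9 MEF libraries (3 empty vector, 3 SAM1, 3 SAM2, grouped by their titles) was measured by paired 43-base RNA-Seq. Per the study's methods, the authors checked reads with FastQC (0.11.0), aligned them to GRCm39 with TopHat2 allowing 3 mismatches and 20 placements, counted them per gene with HTSeq, normalized them with DESeq2 and kept genes above 10 in at least 30% of libraries. All 15184 genes passed that filter. The deposited signal is thus a count divided by a size factor (0.856 to 1.08), and all columns of values were used (0 left out). Counts were recovered from the steps of the values, and 100% were whole within 0.01 in every library. The strand setting of the counting is not given in the sources used here, so overlapping genes on the other strand are named beside the members.

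log2(value + 1) was fitted with limma (3.58.1, trend, R 4.3.3), two-sided, with all 9 libraries in a fit of 3 groups, or with the 6 Hnrnpk_SAM libraries as 1 group as in the study, and p-values were adjusted over all genes. The fit of 3 groups takes 1 spread per gene for all groups, so a gene has the same SE in each of its comparisons. The spread did differ between groups. For *Actg1* the SD was 9.4% of the mean in Empty, 6.3% in SAM1 and 1.3% in SAM2. Alternatives were other pseudocounts, a filter, quantile normalization, a replicate block, the mean of the line effects, each library left out, and edgeR (4.0.16) and DESeq2 (1.42.0) on recovered counts, on which edgeR called 4106 genes higher and 4062 lower for both lines as 1 group, beside 4076 and 4103 in limma. Equal library totals, values relative to *Gapdh* and the canonical transcript length were added after seeing the data. Positions and the lengths of merged exons were read from the GENCODE vM39 annotation of GRCm39, where 14791 of the names had a unique entry.

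The 10 genes and the lists were chosen with earlier results of these data known. Named beside the members are all other isoforms of the actin, tropomyosin and calponin lists, all SRF factors, the 3 genes of each list with the smallest adjusted p for both lines against empty vector, and the 3 genes most correlated with *Acta2* and *Vcl*. *Gapdh*, *Hnrnpk*, *Lmna*, *Myh9*, *Myh10*, *Myl6*, *Myl12a*, *Myl12b*, *Mylk*, *Myh11*, *Des*, *Synpo2*, *Pdlim7*, *Tgfb1i1*, *Cald1*, *Csrp1*, overlapping genes and single markers were named after their values were seen.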

Additional observations from a re-analysis of the deposited data

Results flagged for a closer look

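For 9 of the 10 genes the change against empty vector differed between the lines, by the test of SAM2 against SAM1 in the limma fit of 3 groups. All 9 were lower in SAM2, where 29.2% of all genes were called lower and 31.1% higher than in SAM1. The difference (SAM2 minus SAM1, log2) was −0.63 for *Vim*, −0.52 for *Actg1*, −0.51 for *Tpm2*, −0.46 for *Actb*, −0.40 for *Cnn1*, −0.35 for *Tagln*, −0.27 for *Tpm1*, −0.21 for *Acta2* and −0.11 for *Vcl* (limma adjusted p from 2.53e-09 for *Vim* to 0.0363 for *Vcl*). *Actb* and *Vim* were called in opposite directions in the lines, although the calls of *Actb* in SAM1 and of *Vim* in SAM2 were lost without single libraries, as given above. All 3 SAM2 libraries lay below all 3 SAM1 libraries for these genes apart from *Vcl*, but how many of all genes do so was not counted.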

How the results depend on the processing

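Of 370 member values recomputed under settings other than leaving out a library, 323 kept their direction and their side of the threshold, 20 passed it, 5 no longer did and 22 changed sign. Of 360 values with 1 library left out, 335 were the same and 3 changed sign. With the mean of the SAM1 and SAM2 effects in place of 1 group of 6 libraries, 9 of the 10 genes were called for both lines against empty vector in place of 5 (over all 15184 genes, 5698 higher and 5625 lower in place of 4076 and 4103), and relative to *Gapdh* 10 were (1311 higher and 9185 lower). Under quantile normalization *Actg1* was no longer called for both lines as 1 group (−0.33, limma adjusted p = 0.131) or in SAM1. Without 1 library, 5 to 6 genes were called for both lines, 8 to 9 in SAM1, 6 to 9 in SAM2 and 8 to 9 between the lines.

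Equal library totals moved the median of all genes to 0.13 for both lines, 0.15 in SAM1 and 0.10 in SAM2. Values relative to *Gapdh* moved it to −0.55, −0.70 and −0.40 (0.30 for SAM2 against SAM1). Relative to the median of all genes, 5 member values changed sign under quantile normalization. None did under these 2 scalings, which shift all genes nearly alike, so that outcome was fixed in advance. When values were not taken relative to that median, the following changed sign. For both lines as 1 group, quantile normalization gave 0.10 for *Actb* and 0.14 for *Vcl*, equal library totals 0.10 for *Vcl*, and *Gapdh* −0.28 for *Tagln*, −0.32 for *Tpm2* and −0.32 for *Vim*, while *Vcl* ranged from −0.0673 to 0.00758 with 1 library left out. In SAM1, *Gapdh* gave −0.26 for *Tagln*, −0.22 for *Tpm2*, −0.61 for *Actb*, −0.16 for *Vim* and −0.69 for *Vcl*, and *Vcl* ranged from −0.0122 to 0.0706 with 1 library left out. In SAM2, quantile normalization gave 0.0545 for *Tpm2*, 0.34 for *Vim* and 0.0578 for *Vcl*, equal library totals 0.0898, 0.0267 and 0.0220, *Gapdh* −0.30 for *Tagln*, and *Tpm2* ranged from −0.0539 to 0.0224 with 1 library left out. For SAM2 against SAM1, *Gapdh* gave 0.10 for *Acta2*, 0.24 for *Myl9*, 0.0414 for *Tpm1* and 0.20 for *Vcl*. *Gapdh* itself rose (6657, 10916 and 8804 normalized counts). The cause was not tested.

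Deviations from the group mean correlated at 0.002 to 0.117 between libraries of the same number (mean 0.053). Between libraries of different numbers they correlated at −0.122 to 0.046 (mean −0.027). For 6 of 9 libraries, the best match in both other groups had the same number. With the replicate block, 5 genes were called for both lines, 9 in SAM1, 9 in SAM2 (*Tagln* and *Vcl* in addition) and 9 between the lines.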
